A study of Homo sapiens with 3 samples.

Results

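The genes described here are 9 members of the intermediate filament family: the keratins KRT7, KRT8, KRT18, KRT19 and KRT80, vimentin (VIM), and the nuclear lamins LMNA, LMNB1 and LMNB2. They were chosen by gene symbol, as all transcripts that GENCODE 29 assigns to these symbols, and account for 9 of 52989 genes and 94 of 181854 transcripts in the tables. Their RNA was measured in 3 pull-downs from lysed cells of the established line J82, which derives from a human bladder cancer and was grown to near confluence. The bait was GST-ZFP36L1 carrying the Ala mutation, GST-ZFP36L1 wild type, or GST alone as the control, with 1 sequenced library for each. The residues changed to alanine are not given in the labels. With 1 library for each bait there is no replicate spread and no test across libraries.

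Intermediate filaments are rope-like polymers that give cells mechanical strength. Keratins assemble as pairs of an acidic type I chain (KRT18, KRT19) and a basic type II chain (KRT7, KRT8, KRT80), and the pair KRT8 with KRT18 is typical of simple epithelium. Vimentin forms filaments alone and is the usual intermediate filament of mesenchymal cells, while many carcinoma lines carry both vimentin and keratins. The lamins line the inner face of the nucleus: LMNA encodes lamins A and C by alternative splicing, and LMNB1 and LMNB2 encode the B-type lamins. ZFP36L1 is a zinc finger protein that binds AU-rich stretches of mRNA, of which UAUUUAU is the core, mostly past the stop codon, and promotes decay of the bound mRNA.

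In GENCODE 29 (GRCh38) the 4 keratins with counts lie close together on chromosome 12. KRT80 (ENSG00000167767) spans 52168996 to 52192000 on the minus strand and KRT7 (ENSG00000135480) 52232520 to 52252186 on the plus strand. KRT8 (ENSG00000170421) spans 52897187 to 52949954 on the minus strand and KRT18 (ENSG00000111057) 52948871 to 52952901 on the plus strand. VIM (ENSG00000026025) lies on chromosome 10, from 17228259 to 17237593 on the plus strand. LMNA (ENSG00000160789) lies on chromosome 1 from 156082573 to 156140089, LMNB1 (ENSG00000113368) on chromosome 5 from 126776623 to 126837020, both on the plus strand. LMNB2 (ENSG00000176619) lies on chromosome 19 from 2427638 to 2456996 and KRT19 (ENSG00000171345) on chromosome 17 from 41523617 to 41528308, both on the minus strand.

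The 3' untranslated regions (3' UTRs) of the members held few such stretches. In the coding transcript with the highest mean abundance of each gene, the sense strand was searched for UAUUUAU and for its inner part AUUUA, which overlaps every UAUUUAU match. LMNB2 alone among the 9 held UAUUUAU, with 2 matches in a 3' UTR of 2745 bases. Across the 11646 measured genes with an annotated 3' UTR, 30.8% held UAUUUAU and 67.6% held AUUUA. VIM, LMNA and KRT19 each held 1 AUUUA, and KRT7, KRT8, KRT18, KRT80 and LMNB1 held none in these windows. The sites of LMNB2 and the single matches of VIM and LMNA are shown because the pull-down values below can be set beside them. Sequences are those of GENCODE 29 (GRCh38), 5' to 3', with T for U and the match in capitals.
LMNB2 first match, chr19:2429765-2429794, minus strand: tttttaatggaTATTTATttttttacattg
LMNB2 second match, chr19:2428756-2428785, minus strand: tttttaaaagtTATTTATggcctgggaaac
VIM, chr10:17237426-17237453, plus strand: actcctacaagATTTAgaaaaaagttta
LMNA, chr1:156139753-156139780, plus strand: ttctgtattttATTTAgacaagagatgg
The first LMNB2 match begins 1128 bases after the stop codon and the second 2137 bases after it. The VIM match begins 166 bases and the LMNA match 658 bases after the stop codon. A match is a description of letters, not evidence of binding.

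**Figure D1:**
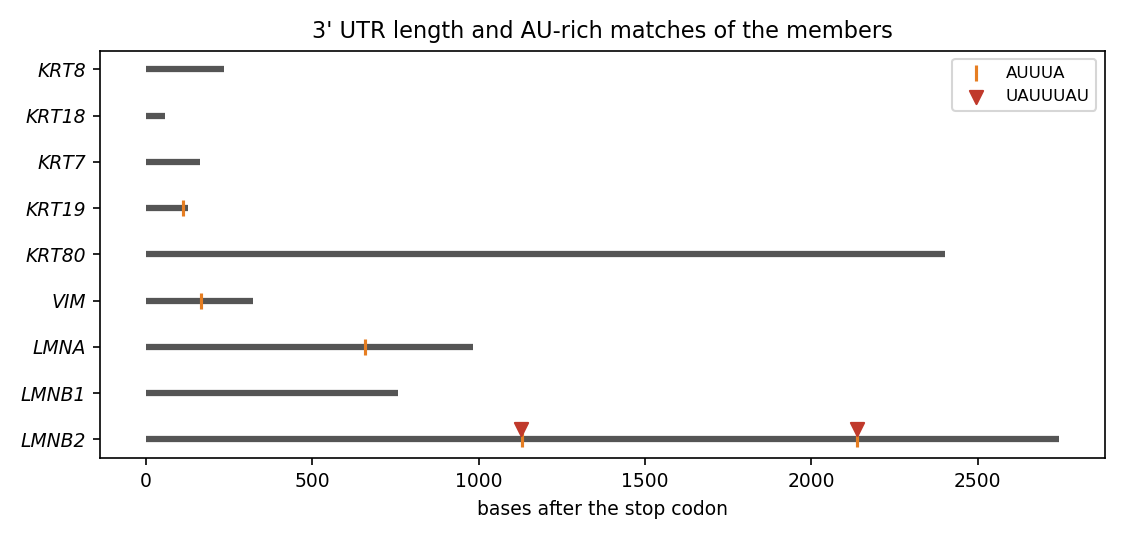
Each bar is the annotated 3' UTR of 1 member, drawn in bases after the stop codon, with AUUUA matches as ticks and UAUUUAU matches as triangles. KRT18 has the shortest at 58 bases, LMNB2 the longest at 2745 bases, and LMNB2 is the member with UAUUUAU.

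The libraries held 19153483 estimated counts for the Ala mutant, 19845386 for wild type and 19137867 for GST. A count is a share of its library, so a smaller share and a smaller amount of recovered RNA cannot be told apart, nor can fewer cells holding an mRNA and less of it per cell. Libraries were scaled by trimmed mean of M values (TMM). Higher and lower mean a scaled ratio of at least 2 in that direction with a 95% interval that excluded 1. These exact Clopper-Pearson intervals cover counting error only, and neither the assignment of reads to similar transcripts nor any difference between repeat pull-downs. By the deposited tables' names, the GST library has a code of its own, while the wild-type and mutant ones share another. Whatever the code stands for and the bait cannot be told apart in comparisons with GST. Of 15 urothelial and epithelial markers 4 had a mean of at least 10 counts, and KRT5, KRT13, KRT14, KRT20, UPK3A and GRHL2 were at 0 in all 3 libraries. The 15 summed to 178 counts for the mutant, 217 for wild type and 220 for GST, and EPCAM, at 3, 55 and 11 in the same order, was higher with wild type than with GST. Of 10 mesenchymal markers 5 were measured, and the 10 summed to 734, 2700 and 1401 counts, mostly from FN1 (263, 1403 and 573) and ZEB1 (263, 960 and 499). FN1 was higher and COL1A1, at 36, 23 and 49 counts, lower with wild type than with GST, and TWIST1 and COL3A1 were at 0 throughout. Markers of leukocytes summed to 49, 24 and 49 counts for mutant, wild type and GST, and those of erythroid cells and hepatocytes to at most 4. The leukocyte marker CD68, at 28, 16 and 35 counts, was lower with wild type than with GST. Of all measured genes 25.5% were higher and 34.3% lower in that comparison. For wild type over mutant EPCAM, FN1, ZEB1 and ZEB2 were higher and CD68 lower, beside 30.1% and 36.1% of all genes. Mitochondrial genes took 7.53% of counts for the mutant, 15.5% for wild type and 10.6% for GST. The part of these markers and of the mitochondrial share in the results was not tested.

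KRT19, the smallest of the type I keratins, was listed at 0 counts in all 3 libraries for each of its 7 transcripts and is treated as not measured. The other 8 members had a mean of at least 10 counts and are compared below. Levels between genes are compared in TPM, which is scaled for transcript length. With the Ala mutant, VIM was the most abundant member at 635 TPM, followed by KRT18 at 626, KRT7 at 302, KRT8 at 149.6, LMNA at 67.8, KRT80 at 17.9, LMNB1 at 6.72 and LMNB2 at 1.32 TPM. With wild-type ZFP36L1 the order was VIM 67.5, KRT18 29.5, LMNB1 29.1, KRT80 26.1, KRT7 18.8, KRT8 12.2 and LMNA 3.64 TPM, with LMNB2 at 0 counts. GST alone had the order of the mutant, with VIM at 998, KRT18 at 426, KRT7 at 189, KRT8 at 96.0, LMNA at 36.7, KRT80 at 23.9, LMNB1 at 13.8 and LMNB2 at 5.50 TPM. The B-type lamin LMNB1 and KRT80 thus stood above KRT7, KRT8 and LMNA with wild type and below them in the other libraries. Neighbours in these orders could not be set against a replicate spread. The level of LMNA over LMNB1, as a ratio of TPM, was 10.1 with the mutant, 0.125 with wild type and 2.67 with GST. Of the LMNA TPM, the prelamin A transcript LMNA-206 gave 17.5, 3.04 and 18.1 in the same order. The shorter LMNA-222 and LMNA-217 gave 25.4 and 22.4 with the mutant, and 8.25 and 7.27 with GST. With wild type they gave 0 and 0.296, so the LMNA over LMNB1 ratio depends on the counts assigned to them. The level of KRT18 over its partner KRT8 was 4.19 with the mutant, 2.41 with wild type and 4.44 with GST, and that of VIM over KRT18 was 1.01, 2.29 and 2.34 in the same order. Of the KRT8 TPM, the short non-coding KRT8-212 gave 17.3 with the mutant, 5.08 with wild type and 16.5 with GST. The coding KRT8-201 gave 125, 7.16 and 68.6, so the KRT18 over KRT8 ratio includes a short transcript that weighs most with wild type.

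**Figure D2:**
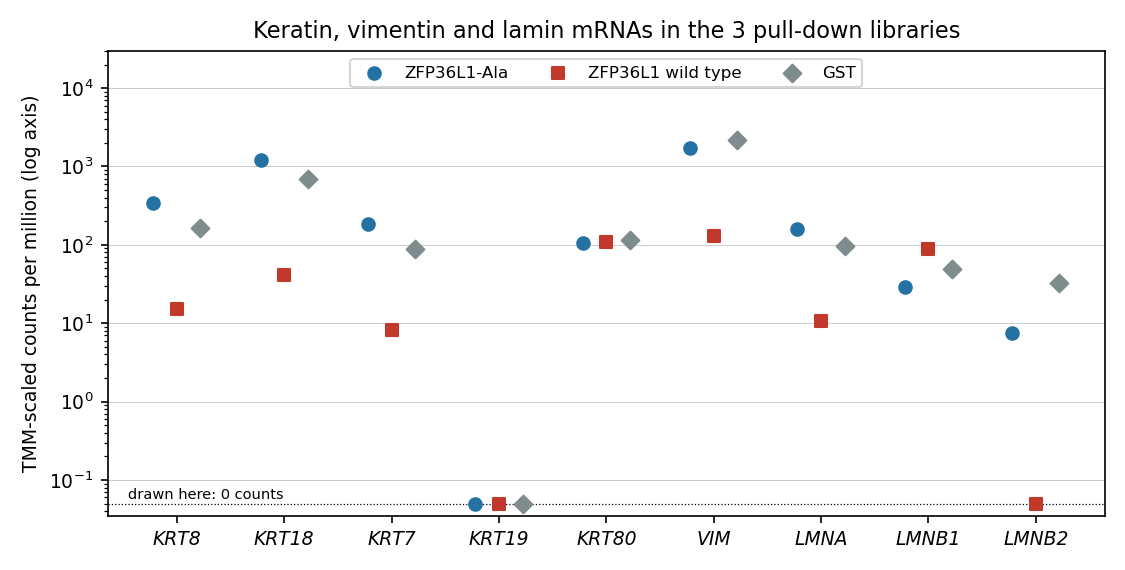
TMM-scaled CPM, a count scaled to library size (log axis), for the 9 members, with 1 point for each library (mutant, wild type, GST). KRT19 lies at 0 in all 3 libraries and LMNB2 at 0 with wild type, while the 3 points of KRT80 lie between 105 and 114.

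Setting wild type against GST addresses which RNAs ZFP36L1 recovered beyond background. Of the 8 measured members 6 were lower with wild type than with GST and none was higher, where 34.3% of all 14055 measured genes were lower and 25.5% higher (59.7% in either direction). The median log2 ratio of the 8 members was -3.41, against -0.03 for all genes. KRT8 and KRT18 stood far below GST. KRT8 had 305 counts with wild type and 3054 with GST, and was 10.6-fold lower (log2 -3.40, interval -3.58 to -3.24). KRT18 had 823 counts with wild type and 12980 with GST, and was 16.7-fold lower (log2 -4.06, -4.17 to -3.96). KRT7, a type II keratin of simple epithelium and urothelium, had 165 counts with wild type and 1669 with GST, a 10.7-fold lower share (log2 -3.42, -3.66 to -3.19). VIM had 2581 counts with wild type and 41484 with GST, and was 17.0-fold lower (log2 -4.09, -4.15 to -4.03). KRT7, KRT8, KRT18 and VIM thus lay on the same side of GST, and 2.99% of all genes had a lower ratio than VIM.

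KRT80, a type II keratin, did not share this shift. It had 2161 counts with wild type and 2159 with GST (log2 -0.08, -0.17 to 0.01), and lay at the 49.4th percentile of all genes. The sign of this small ratio depended on the scaling: it was 0.03 with totals that left out the most abundant genes. The lamins spread over the whole range. LMNA had 216 counts with wild type and 1839 with GST, and was 9.0-fold lower (log2 -3.17, -3.38 to -2.97). LMNB1 had 1771 counts with wild type and 918 with GST, a ratio of 1.82, under 2-fold (log2 0.86, 0.75 to 0.98). On the log2(TPM + pseudocount) scale LMNB1 passed 2-fold, at 1.05 with a pseudocount of 0.5 and 1.03 with a pseudocount of 1. LMNB2, the member with the UAUUUAU sites shown above, had 0 counts with wild type and 32.2 CPM with GST. Against a floor of 3 counts in the wild-type library it was at least 214-fold lower. A count of 0 with wild type was rare at this depth: of the 4186 measured genes with as many GST counts as LMNB2 or more, 3 were at 0 with wild type, LMNB2 included. These are estimated counts. LMNB2 shared none of the 31-base words of its main transcript, LMNB2-201, with other genes among the transcripts matched to the gene annotation. Unmatched transcripts held 3.79% of the wild-type counts and were not searched. Whether LMNB2 reads were assigned to them was not tested.

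**Figure D3:**
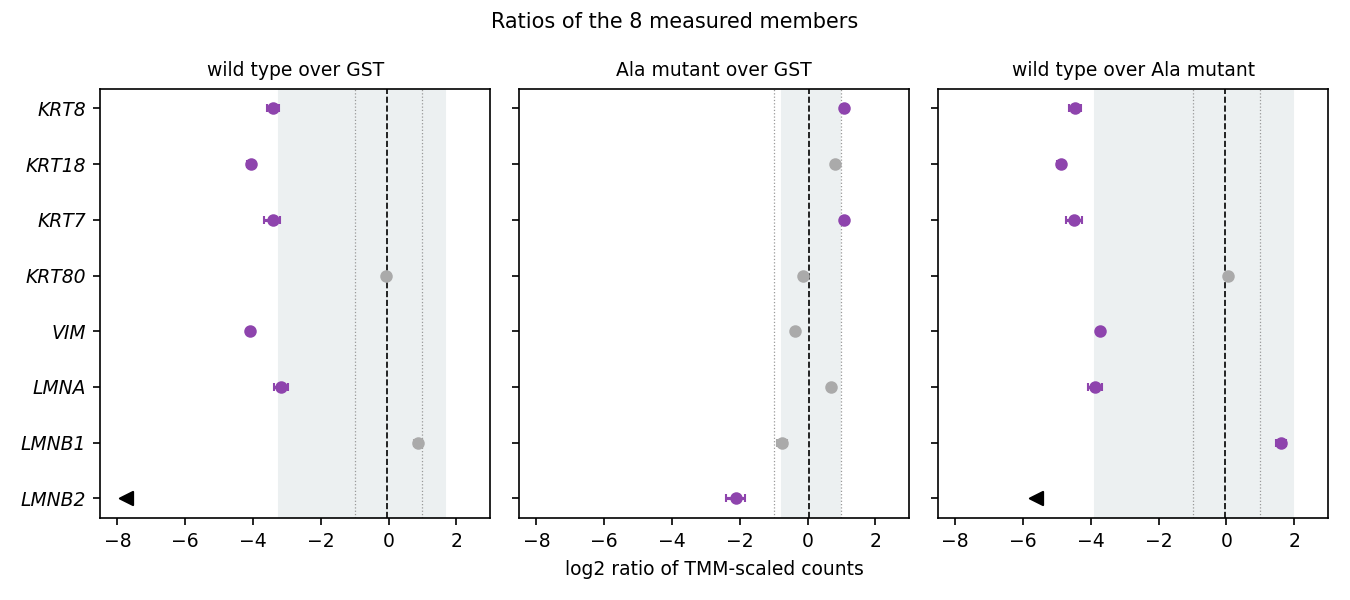
Log2 ratio of each measured member in the 3 comparisons, with 95% counting intervals. Purple points are counted as higher or lower and grey points are not. Arrowheads set LMNB2 at a floor of 3 counts with wild type, where it had 0. The shaded band spans the middle 80% of all genes and the dashed line is their median. KRT80 sits near 0 in each panel, and the position of LMNB1 right of KRT8, KRT18, KRT7, VIM and LMNA in the outer panels contrasts with its place left of them in the middle panel.

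Setting the Ala mutant against GST addresses the same question for the altered protein. Of the 8 members 2 were higher, against 9.06% of all genes, and 1 was lower, against 5.09% of all genes (14.2% in either direction). The median log2 ratio of the members was 0.29, with 0.05 for all genes. KRT8 had 5785 counts with the mutant and 3054 with GST, and was 2.09-fold higher (log2 1.06, 1.0 to 1.13). KRT7 had 3186 counts with the mutant and 1669 with GST, and was 2.11-fold higher (log2 1.08, 0.99 to 1.16). Both lay just past 2-fold, and neither was counted when scaled to total counts (log2 0.92 for KRT8 and 0.94 for KRT7). KRT18, with 20794 counts for the mutant and 12980 for GST, lay just below 2-fold (log2 0.82, 0.79 to 0.85). LMNA also lay above 1 but under 2-fold, with 2717 counts for the mutant and 1839 for GST (log2 0.71, 0.62 to 0.79). VIM had 29118 counts with the mutant and 41484 with GST (log2 -0.37, -0.39 to -0.35), and KRT80 had 1790 and 2159 (log2 -0.13, -0.22 to -0.04). LMNB1 had 494 counts with the mutant and 918 with GST (log2 -0.75, -0.91 to -0.59). LMNB2 was the member that was lower, with 7.43 CPM for the mutant (127 counts) and 32.2 CPM for GST, a 4.32-fold difference (log2 -2.11, -2.40 to -1.84). It lay below all but 0.918% of genes. LMNB2 was thus the sole member lower than GST with both forms of ZFP36L1, and both comparisons share the same GST library.

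The mutant and wild-type libraries, whose tables carry the same code, were compared directly to ask what the alanine change altered. The ratios here are of wild type over mutant, so that a negative value means a higher share with the mutant. Of the 8 members 6 had a higher share with the mutant, where 36.1% of all genes did, and 1 had a lower share with the mutant, where 30.1% did (66.2% of all genes in either direction). The members' median log2 ratio was -4.17, against -0.04 for all genes. KRT18 differed most among the members with counts in both, with 1217 CPM for the mutant and 41.2 CPM for wild type, and was 29.5-fold higher with the mutant (log2 -4.88, -4.99 to -4.78). KRT8 was 22.1-fold (log2 -4.47, -4.64 to -4.30) and KRT7 22.5-fold higher with the mutant (log2 -4.49, -4.73 to -4.27). LMNA was 14.7-fold (log2 -3.88, -4.09 to -3.68) and VIM 13.2-fold higher with the mutant (log2 -3.72, -3.78 to -3.66). With the same floor LMNB2 was 49.5-fold higher with the mutant, and the upper limit of its interval was log2 -5.31. LMNB1 went the other way, with 28.9 CPM for the mutant and 88.6 CPM for wild type, and was 3.06-fold lower with the mutant (log2 1.62, 1.47 to 1.76). KRT80 had 105 CPM with the mutant and 108 CPM with wild type (log2 0.05, -0.04 to 0.14), and this sign turned, to -0.04, when only protein-coding transcripts were counted. After removal of a trend fitted on GC content and length of the transcripts, KRT80 stood at log2 1.49 for wild type over mutant and was counted as lower with the mutant.

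The members' counts fell on few of their annotated transcripts. Of the 94 transcripts 55 were at 0 in all 3 libraries, 27 had a mean of at least 10 counts and 16 took at least 5% of their gene's counts in some library. VIM was carried by VIM-201, a coding transcript of 466 codons, with 99.5% of the gene's counts for the mutant, 97.9% for wild type and 99.4% for GST. LMNB1-201 took 97.8%, 100% and 97.0% in the same order. KRT18-202 took 96.5% for the mutant, 94.4% for wild type and 83.3% for GST. A second KRT18 transcript, KRT18-201, codes for the same 430 codons from a start further into the gene. It had 429 counts with the mutant, 39 with wild type and 1963 with GST, and was 4.14-fold lower with the mutant than with GST (log2 -2.05, -2.21 to -1.90), while KRT18-202 was 2.05-fold higher there (log2 1.04, 1.0 to 1.07). KRT18-202 was not counted as higher when scaled to total counts (log2 0.90), and KRT18-201 stayed lower (log2 -2.19). Of the 31-base words of KRT18-201, 86.4% also occur in KRT18-202, so only the remaining words tell them apart.

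KRT7 counts did not fall on its full-length coding transcript. KRT7-201, of 469 codons, had 7 counts with the mutant, 2 with wild type and 0 with GST. Nearly all of its counts were assigned to short transcripts annotated without a coding sequence at the 3' end of the gene, from position 52244378 of chromosome 12 (GRCh38) onwards, where the gene spans 52232520 to 52252186. KRT7-209, of 499 bases, took 62.5% of the counts for the mutant, 60.9% for wild type and 74.0% for GST. KRT7-212, of 816 bases, took 32.2%, 30.6% and 16.7% in the same order, and was 4.07-fold higher with the mutant than with GST (log2 2.02, 1.83 to 2.22). KRT7-206, of 639 bases, had 125 counts with the mutant, 8 with wild type and 109 with GST. Over the 3 libraries 99.8% of KRT7 counts lay outside protein-coding transcripts, a share reached by 2.49% of the 11775 measured protein-coding genes, whose median share was 0.897%. KRT7-209 shares 72.1% of its 31-base words with KRT7-201, and the TPM of KRT7 is scaled to these short lengths, so its place in the order of levels above depends on that assignment.

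LMNA was divided among 4 transcripts. LMNA-206, whose 664 codons are those of prelamin A, had 1432 counts with the mutant, 206 with wild type and 1343 with GST. Its share of the gene was 52.7% for the mutant, 95.5% for wild type and 73.0% for GST. LMNA-207, of 572 codons, the length of lamin C, was listed at 0 in all 3 libraries. LMNA-217, which retains an intron, had 709 counts with the mutant, 8 with wild type and 209 with GST. It was 3.74-fold higher with the mutant than with GST (log2 1.90, 1.68 to 2.13) and 26.1-fold lower with wild type than with GST (log2 -4.71, -6.02 to -3.79). LMNA-222, a short coding transcript of 260 codons, had 460 counts with the mutant, 0 with wild type and 136 with GST. It was 3.72-fold higher with the mutant than with GST (log2 1.90, 1.62 to 2.19). LMNA-201, a coding transcript of 634 codons, had 98 counts with the mutant, 0 with wild type and 137 with GST. LMNA-206 itself stood at log2 0.24 for mutant over GST (0.13 to 0.34), so that LMNA-217 and LMNA-222 were the LMNA transcripts counted as higher there. Of the 31-base words of LMNA-222, 96.5% also occur in LMNA-206, as do 97.9% of those of LMNA-201. For LMNA-207 this share is 77.2% and for LMNA-217 55.8%. Only the remaining words tell these transcripts from LMNA-206, and their counts depend on that assignment. KRT80 had a second coding transcript, KRT80-201, with 319 counts for the mutant and 0 for wild type and GST. It shares 98.4% of its 31-base words with KRT80-202, which held every KRT80 count in the other libraries.

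**Figure D4:**
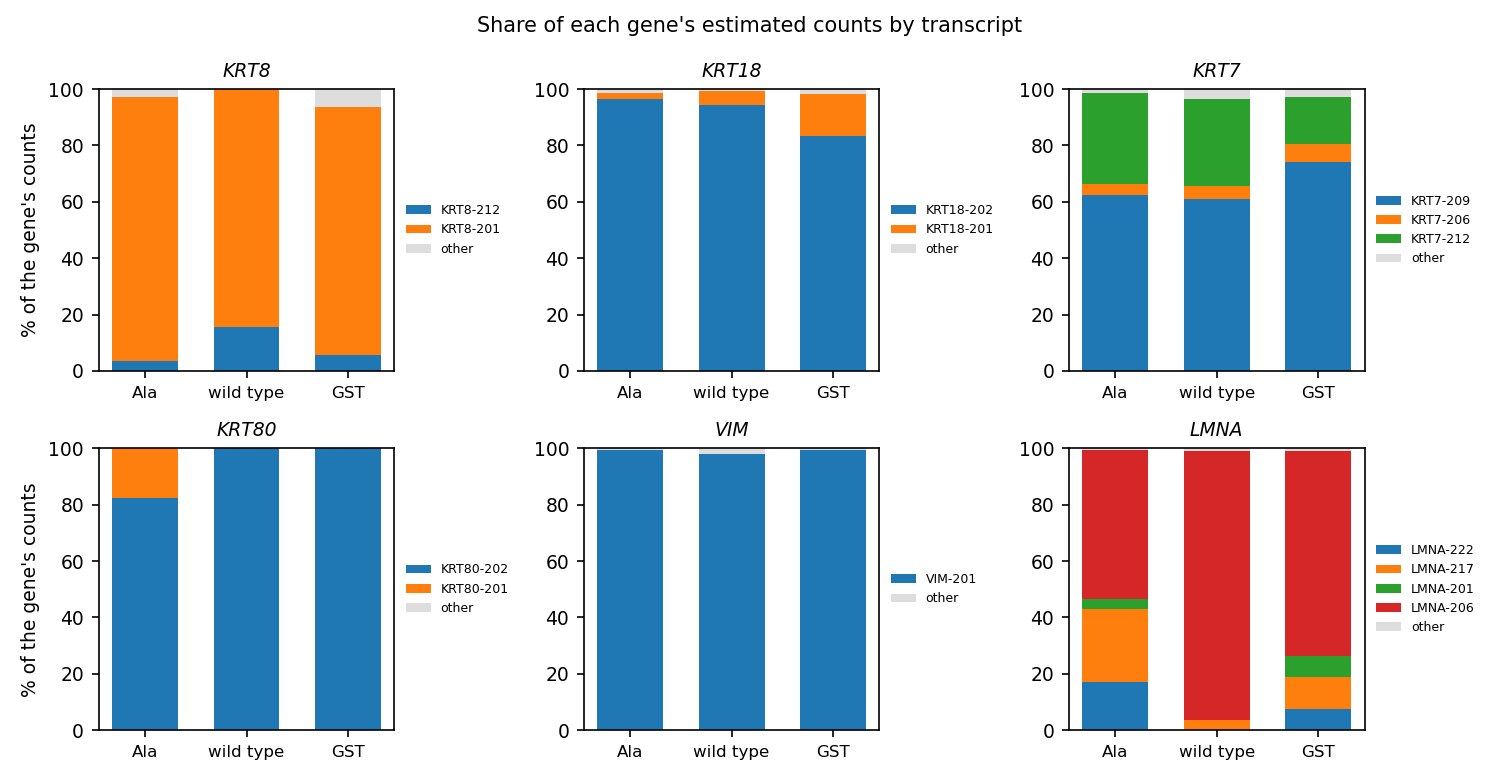
Share of a gene's estimated counts taken by each transcript (percent, stacked) in the mutant, wild-type and GST libraries, for transcripts with at least 5% in some library, with the remainder in grey. LMNA-217 and LMNA-222 take their largest shares with the mutant (26.1% and 16.9%), and no KRT7 bar holds the full-length coding transcript.

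KRT8 and KRT18 have many processed pseudogenes, which are intronless copies of their mRNA elsewhere in the genome. Of the 31-base words of KRT18-202, 74.1% also occur in transcripts of other genes on either strand, and of those of KRT8-201, 55.5%. These are shares of words, not of counts, and how uncertain they leave the counts was not measured. Transcripts not matched to the gene annotation were left out of this search. The 67 KRT18 pseudogenes held 1.62% as many counts as the gene for the mutant, 2.01% for wild type and 1.76% for GST, and the 50 KRT8 pseudogenes 2.88%, 6.63% and 2.61%. None reached 5% of its parent alone. With pseudogene counts added to the parent, wild type over GST stood at log2 -4.06 for KRT18 and -3.35 for KRT8. The gene model of KRT8 on the minus strand overlaps the start of KRT18 on the plus strand. KRT8-212, a non-coding transcript there with 194, 47 and 168 counts for mutant, wild type and GST, shares no 31-base word with KRT8-201, and 40.7% of its words occur in other genes. Of the words of VIM-201, 47.4% occur in other genes when both strands are counted. The antisense gene VIM-AS1 held 6, 2 and 2 counts, but strandedness of the counting is not given in the sources used here, so sense and antisense reads cannot be told apart.

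Base composition moved with these ratios. Across all measured genes, the ratio of wild type to GST was lower for transcripts richer in G and C (Spearman rho -0.59; genes are not independent replicates), and that of mutant to GST was higher (rho 0.54). LMNA at 61.5% GC, LMNB2 at 61.4%, KRT8 at 59.7% and KRT18 at 58.5% lay above the median transcript at 48.0%, and so did VIM at 53.9%. LMNB1, at 47.7%, was the one measured member below the median, and also the one with the highest ratio of wild type to GST. KRT80 was GC-rich at 56.8% and yet stood near 0. KRT7 entered with the GC content (53.9%) and length (499 bases) of the non-coding KRT7-209, while KRT7-212 had 63.5% GC. The KRT7 values with the fit removed rest on that choice. With a cubic fit on transcript GC and length removed, KRT8 stood at log2 -1.49, KRT18 at -2.17, KRT7 at -1.79, LMNA at -1.27 and VIM at -3.02 for wild type over GST, and all 5 remained lower. KRT80 stood at 1.13 with this fit removed and was then counted as higher, and LMNB1 stood at 0.79. For mutant over GST, KRT8 stood at 0.57 and KRT7 at 0.60 with the fit removed, and neither was counted. For wild type over mutant, KRT8 stood at -2.06, KRT18 at -2.49, KRT7 at -2.39, VIM at -2.40 and LMNA at -1.51 with the fit removed, each smaller in size than without it, and all 5 were still counted as higher with the mutant. The part of base composition in these ratios was not otherwise tested.

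**Figure D5:**
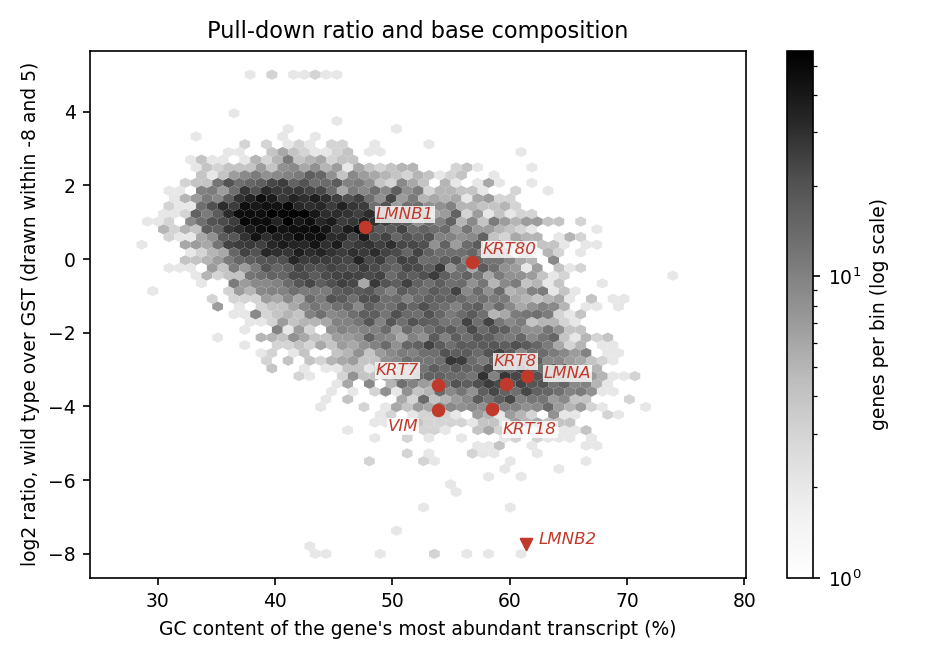
Log2 ratio of wild type over GST against the GC content (percent) of each gene's most abundant transcript, with all measured genes as grey bins and the 8 measured members in red. VIM and KRT7, both at 53.9% GC, lie at the lower edge of the cloud, KRT80 at 56.8% lies at its upper part, and the triangle for LMNB2 is a bound.

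Genes that work with these filaments were counted from lists of known partners. Of 50 other keratin genes 41 were at 0 in all libraries and 2 were measured. Both were lower with wild type than with GST, as were 34.3% of all genes. KRT10, a type I keratin of the epidermis, had 84 counts with wild type and 220 with GST (log2 -1.47, -1.85 to -1.10), and KRT86, a hair keratin, had 4 and 16 (log2 -1.96, -4.12 to -0.45). Of 11 other cytoplasmic filament genes BFSP1 and GFAP were measured. BFSP1, a lens filament protein, was lower with wild type, at 30 counts against 63 with GST (log2 -1.14, -1.83 to -0.50). GFAP, the astrocyte filament protein, was higher with the mutant, at 23 counts against 8 with GST (log2 1.61, 0.45 to 3.04). Of all genes 9.06% were higher in that comparison, and the GFAP counts are low.

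Partners of the lamina lay on both sides of GST. Of 14 measured genes of the lamina and nuclear envelope 6 were higher with wild type than with GST and 3 lower, beside 25.5% and 34.3% of all genes. Their median log2 ratio was 0.98, against -0.03 for all genes. With the mutant 0 of the 14 were higher or lower than with GST, beside 14.2% of all genes. LBR, the lamin B receptor, had 2439 counts with wild type and 877 with GST (log2 1.39, 1.28 to 1.51), and TOR1AIP1, a lamina-binding membrane protein, stood at log2 1.34 (1.23 to 1.45). BANF1, a small DNA-binding protein that links chromatin to the envelope, was 21.9-fold lower (log2 -4.45, -4.52 to -4.38), and emerin (EMD) was 6.38-fold lower (log2 -2.67, -2.82 to -2.53). For wild type over mutant 6 had a lower share with the mutant and 3 a higher one, beside 30.1% and 36.1% of all genes. TMPO, which encodes lamina-associated polypeptides, stood at log2 1.35 (1.30 to 1.40). Among 5 enzymes that process prenylated lamins, ZMPSTE24, the protease that matures prelamin A, was higher with wild type than with GST (log2 1.48, 1.33 to 1.63), and RCE1, a CAAX protease, was lower (log2 -2.15, -2.48 to -1.84). The other 3 enzymes were not counted in either direction, where 25.5% of all genes were higher and 34.3% lower. With the mutant 0 of 5 were counted, beside 14.2% of all genes.

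Of 11 measured genes for filament linkers and desmosomes, the junctions that anchor keratins, 3 were higher with wild type than with GST and 4 lower, shares near those of all genes (25.5% and 34.3%). Their median log2 ratio was -0.63, against -0.03 for all genes. Higher were the desmosomal cadherin DSG2 (log2 1.73, 1.60 to 1.87) and the spectraplakin MACF1 (log2 1.11, 1.06 to 1.16). Lower were plakoglobin, JUP (log2 -1.98, -2.08 to -1.87), and plectin, PLEC (log2 -2.19, -2.38 to -2.0), which ties filaments to other cytoskeletal fibres. With the mutant 1 of 11 was lower than GST, the plakin PPL (log2 -1.07, -1.48 to -0.67), and 0 were higher. Of all genes 5.09% were lower and 9.06% higher there. For wild type over mutant 4 had a lower share with the mutant and 3 a higher one, beside 30.1% and 36.1% of all genes. DSG2 was among the 4 (log2 2.15, 2.0 to 2.31) and PLEC among the 3 (log2 -2.60, -2.79 to -2.42).

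Genes with the most similar pattern were taken from 9150 protein-coding genes with a mean of at least 100 counts, by Euclidean distance between the log2 ratios of wild type over GST and mutant over GST. These ratios summarise 3 libraries and share the GST library, so likeness is a description. The gene nearest to KRT8 was KRT7, at a distance of 0.02. KRT18 lay nearest to STXBP2 and PRKAR1B, at 0.02 and 0.03, and VIM nearest to ATF5 at 0.02 and CAPZB at 0.06. LMNB1 lay nearest to UCHL5 at 0.02, LMNA to ROBO3 at 0.01 and KRT80 to SREBF2 at 0.01. LMNB2 had no close neighbour: RIOX1, also at 0 counts with wild type, was nearest at 0.60, a distance that depends on the prior count.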

How the data were processed

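Kallisto, DESeq2 and hg19 are named in the submitters' processing notes, without versions, annotation or roles. The deposited tables hold, for each of 196354 transcripts, the estimated count and the TPM, which the authors' kallisto run produced. Other columns, per the file headers, are lengths in bases.

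Transcripts were joined by Ensembl identifier to GENCODE 29 (GRCh38), which matched 92.6%, and the rest were not analysed here (4.20% of counts for the mutant, 3.79% for wild type and 3.92% for GST). Estimated counts were summed by gene and rounded to whole numbers. Genes with a mean of at least 10 counts entered (14055). TMM factors came from edgeR 4.0.16 (0.931 for mutant, 1.05 for wild type, 1.03 for GST). Log2 ratios used a prior count of 0.5 and exact Clopper-Pearson intervals on the split of summed counts. A fold against 0 counts is a bound against 3 counts in that library. GC content and length are those of a gene's most abundant transcript. The scaling and ratio steps were tested on simulated data in which most rows were unchanged. In these libraries 59.7% of measured genes were higher or lower for wild type over GST, a setting that the simulation did not cover.

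The members and lists were chosen with earlier results of these data known. Named were all members, transcripts with at least 5% of a gene's counts in some library, up to 4 counted genes with the most counts per list and comparison, and up to 2 nearest genes per member. LMNA-207, KRT7-201 and VIM-AS1 were named after their values had been seen, as were the marker genes. Alternatives were DESeq2 1.42.0 size factors, 2 forms of total counts, the deposited TPM with pseudocounts of 0.5 and 1, other minimum counts, protein-coding transcripts only, a fit on GC and length, added pseudogene counts and a prior count of 2.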

Additional observations from a re-analysis of the deposited data

How the results depend on the processing

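With 1 library for each bait, counting error is the sole error that the intervals hold, and the depth limits LMNB2 with wild type to a bound. Members lower numbered 6 for wild type over GST, 1 for mutant over GST and 6 for wild type over mutant in 10 of 11 alternatives, and 5, 1 and 5 with protein-coding transcripts only, where KRT7 has no value. Members higher for mutant over GST numbered 2 with TMM, 1 with protein-coding transcripts only (KRT8) and 0 with total counts, with totals without the most abundant genes, with TPM at either pseudocount, with no minimum count and with the GC and length fit removed. Members higher for wild type over GST numbered 1 with TPM at either pseudocount (LMNB1) and 1 with the fit removed (KRT80), against 0 with TMM. For wild type over mutant they numbered 2 with the fit removed (LMNB1 and KRT80), against 1. The shift in the all-gene median with totals without the most abundant genes was 0.11, -0.22 and 0.33 for wild type over GST, mutant over GST and wild type over mutant. For all genes and mutant over GST, 776 were higher and 1234 lower with these totals, against 1273 and 716. There 548 and 451 were higher with TPM at pseudocounts of 0.5 and 1, and 531 with the fit removed. With no minimum 1167 were lower, and a minimum of 100 left 580 higher and 360 lower, with fewer genes entered. With the fit removed 2979 were lower for wild type over GST, against 4814, and 3308 for wild type over mutant, against 5072. The cause of the other changes was not tested. No called member reversed its direction. No paired analysis was possible because each bait has 1 library.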
